A study of Mus musculus with 2 samples.

Results

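The m6A RNA methylation machinery of the mouse was described in G1E cells by 10 genes out of 43346 gene entries. The genes were taken by name from the known writers, erasers and readers, with earlier results of these data known. They were 3 writers (Mettl3, Mettl14 and Wtap), 2 erasers (Alkbh5 and Fto) and 5 readers with a YTH domain (Ythdf1, Ythdf2, Ythdf3, Ythdc1 and Ythdc2). All 10 were found in both libraries by Ensembl gene identifier.

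N6-methyladenosine, m6A, is a methyl group on adenosines inside messenger RNA. In the writer complex METTL3 transfers the methyl group, METTL14 holds the RNA and WTAP brings the pair to nuclear speckles. ALKBH5 and FTO are iron-dependent oxygenases that remove methyl groups from RNA. Proteins with a YTH domain bind the methylated base and steer splicing, export, translation or decay of the RNA. In blood formation the pathway is known chiefly for its part in stem and progenitor cells and in leukaemia.

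G1E is an immortalised male mouse line of erythroid progenitors without GATA1 function, the factor that drives red cell maturation. The series had 1 group, G1E, with 2 paired-end libraries of polyadenylated RNA that the labels number as biological replicates. The line carries the Gata1- genotype in both libraries, and no agent, time or second genotype was compared, so no test between groups was possible. Both libraries cite the same cell sample, so the spread between them may be technical.

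The libraries held 61982634 (replicate 1) and 80658648 (replicate 2) expected counts over annotated genes. Levels are TPM, which is scaled by transcript length and library total, and are given as the mean ± SD over the libraries (n = 2). Gata1 RNA stood at 47.3 ± 0.997 TPM, a sum over annotated exons that does not show whether an exon is disrupted. All 9 erythroid progenitor markers were above 10 TPM in both libraries, with Gata2 at 1013 ± 102 TPM. The 4 germ cell, 2 pluripotent cell and 3 fibroblast and endothelial markers were listed at 0 in both libraries. Lymphocyte Cd3e was listed at 0 in both libraries, and Cd79a averaged 0.0350 TPM. Mast cell Cpa3 averaged 3.37 TPM while Mcpt8 and Fcer1a were listed at 0. Neutrophil Mpo averaged 1.64 TPM and Elane 0.975 TPM, with Ly6g at 0 and the monocyte gene Csf1r at 0.0100 TPM. Of 4 megakaryocyte markers 3 were detected, with Itga2b at 25.5 TPM and Pf4 at 2.22 TPM on average, and Gp1ba at 8.90 TPM in replicate 1 and 9.10 TPM in replicate 2. Vwf had 0.0400 TPM in replicate 1 and 0.0600 TPM in replicate 2. The part of other cell types in the levels below was not tested.

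Of the 10 m6A genes, 9 were detected, meaning at least 1 TPM in each library, and Ythdc2 was the exception. The same held for 40.0% of protein-coding genes and 21.1% of all gene entries. The median of the members was 24.2 TPM, against 17.0 TPM for the 9150 detected genes. Ythdf1 stood highest at 79.6 ± 8.78 TPM, followed by Ythdf2 at 69.6 ± 5.57 TPM. Wtap at 40.5 ± 3.83 TPM and Alkbh5 at 36.4 ± 3.20 TPM came next, then Ythdc1 at 25.0 ± 0.134 TPM and Ythdf3 at 23.4 ± 6.20 TPM. Mettl3 at 13.5 ± 4.96 TPM, Mettl14 at 12.2 ± 2.08 TPM and Fto at 11.3 ± 1.59 TPM were close together. Ythdc2 closed the order at 0.680 ± 0.0424 TPM.

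In that order the ranges of the 2 libraries overlapped for 5 of the 9 pairs of neighbours. Ythdf1 was not separated from Ythdf2, Wtap from Alkbh5, Ythdc1 from Ythdf3, Mettl3 from Mettl14, or Mettl14 from Fto. The levels therefore fell into 5 steps that did not overlap: Ythdf1 with Ythdf2, Wtap with Alkbh5, Ythdc1 with Ythdf3, the trio of Mettl3, Mettl14 and Fto, and Ythdc2 alone. With 2 values a gene, no exact permutation test can reach 0.05.

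**Figure D1:**
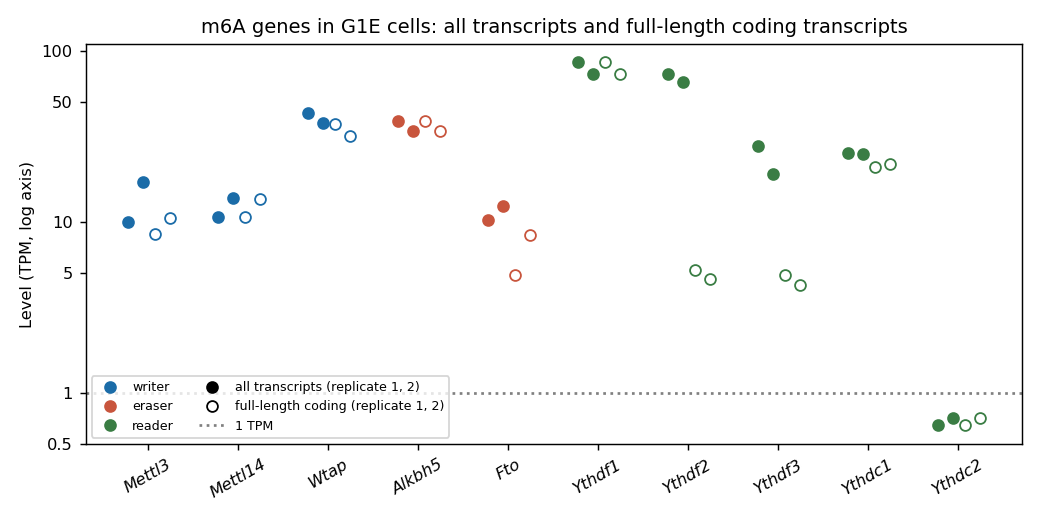
Level of each m6A gene in TPM on a log axis, 1 point per library (replicate 1 left, replicate 2 right), for all transcripts of the gene (filled) and for its full-length coding transcripts alone (open). Ythdf2 averages 4.91 TPM and Ythdf3 4.56 TPM on full-length coding transcripts, against 69.6 and 23.4 TPM on all transcripts, while the open and filled points of Ythdf1 and of Alkbh5 lie at the same height.

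A gene's TPM is the sum over its annotated transcripts, and not all of them encode the protein. The deposited tables list 56 transcripts of the 10 genes, of which 54 were matched to GENCODE M21. A transcript was called full-length coding when its coding sequence was complete and at least 90% as long as the longest complete one of the gene. Among detected protein-coding genes with 2 or more transcripts, 40.2% had under 50% of their TPM on such transcripts in both libraries. Of the 9 members in that class, 2 did, Ythdf2 and Ythdf3. Counted this way the order became Ythdf1 (79.5 ± 8.73 TPM), Alkbh5 (36.4 ± 3.17), Wtap (34.7 ± 3.99), Ythdc1 (21.4 ± 0.537), Mettl14 (12.1 ± 2.10), Mettl3 (9.48 ± 1.44), Fto (6.63 ± 2.50), Ythdf2 (4.91 ± 0.403), Ythdf3 (4.56 ± 0.424) and Ythdc2 (0.680 ± 0.0424). Ythdf2 moved from place 2 to place 8, and Ythdf3 from place 6 to place 9. The median of the members was 10.8 TPM on this scale, against 8.75 TPM for detected protein-coding genes.

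**Figure D2:**
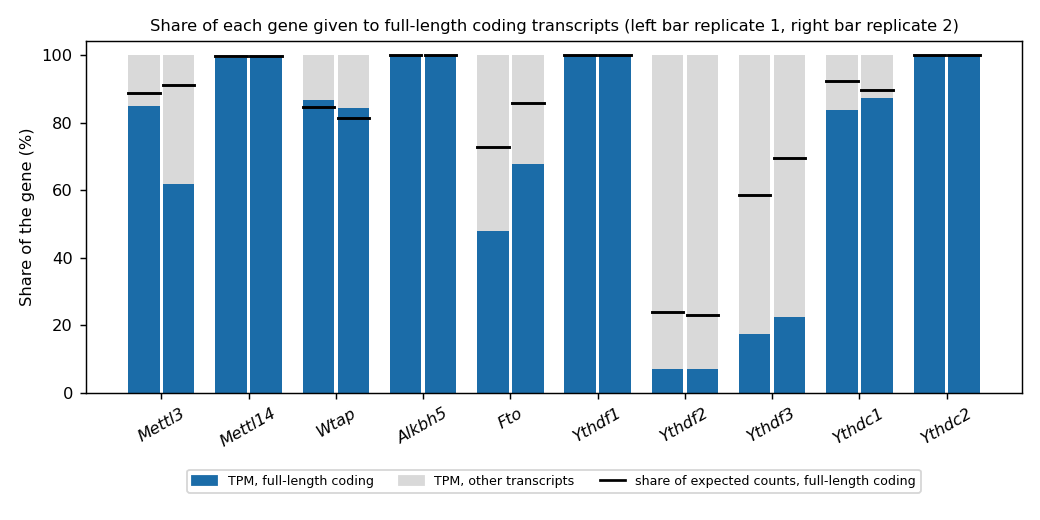
Share of each gene's TPM given to full-length coding transcripts (blue) and to its other transcripts (grey), with a bar for each library, and the share of the gene's expected counts on full-length coding transcripts (black line). In Ythdf2 the blue part is 7.06% in replicate 1 and 7.04% in replicate 2, and Fto and Mettl3 differ between the libraries.

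Mettl3, the catalytic subunit (ENSMUSG00000022160.13, chr14:52294841-52305128, minus strand, assembly GRCm38), had 9.98 TPM in replicate 1 and 17.0 TPM in replicate 2. Mettl14, its partner (ENSMUSG00000028114.12, chr3:123368297-123386108, minus strand), had 10.7 and 13.7 TPM. Both proteins have a methyltransferase fold, but only METTL3 has a working active site, which holds the residues Asp-Pro-Pro-Trp. METTL14 has Glu-Pro-Pro-Leu at the matching place. The stretches of coding sequence below are shown because these motifs set the enzyme apart from its partner. They are written 5′ to 3′ on the sense strand, from GENCODE M21, with the motif codons in capitals.
Mettl3-201, chr14:52297557-52297616: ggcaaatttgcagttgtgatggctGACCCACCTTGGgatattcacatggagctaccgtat
Mettl14-201, chr3:123374781-123374840: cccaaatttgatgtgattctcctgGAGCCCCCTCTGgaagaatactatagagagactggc
The motif starts at codon 395 of 580 in Mettl3-201 and at codon 192 of 456 in Mettl14-201. Transcripts whose bases include the Mettl3 motif, translated or not, took 94.1% of the gene's TPM in replicate 1 and 63.7% in replicate 2, and full-length coding transcripts 84.9% and 61.8%. Transcripts whose bases include the Mettl14 motif took 99.8% and 99.5%, and Mettl14-201, its only full-length coding transcript, 99.1% and 99.5%.

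By gene TPM, Mettl3 was 0.929 times Mettl14 in replicate 1 and 1.24 times in replicate 2, a mean log2 ratio of 0.10 ± 0.30 (SD, n = 2). The direction differed between the libraries. On full-length coding transcripts Mettl3 was 0.795 times Mettl14 in replicate 1 and 0.771 times in replicate 2, a mean log2 ratio of -0.35 ± 0.03. The full-length transcript Mettl3-201 itself stood at 8.46 TPM in replicate 1 and 10.5 TPM in replicate 2, from 889 and 1394 expected counts.

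The difference in gene TPM lay mostly on a short transcript. Mettl3-205, 330 bases with 37 codons and annotated as a target of nonsense-mediated decay, had 0 expected counts in replicate 1 and 66.8 in replicate 2. That was 4.36% of the gene's counts in replicate 2, and 5.18 TPM or 30.5% of its TPM. The deposited bounds of its TPM were 2.62e-05 to 1.86 in replicate 1 and 2.46 to 8.01 in replicate 2, so they did not overlap. Mettl3-206, with the same annotation, went the other way, with 88.9 expected counts in replicate 1 and 0 in replicate 2. The bounds of Mettl3-206 did overlap, at 0.237 to 1.67 TPM in replicate 1 and 8.34e-05 to 1.56 TPM in replicate 2. Mettl3-205 joins the first exon to an exon of 72 bases at chr14:52301297-52301368 that Mettl3-201 does not have, and a stop codon follows after 11 of its bases. The 30 bases around that junction are shown for this stop codon, given in capitals: 15 from chr14:52304888-52304902 and 15 from chr14:52301354-52301368.
Mettl3-205: actctgggcacttggttcacatttatTAGa
Exons of Mettl3 overlap those of Tox4 on the opposite strand, which had 32.5 TPM in replicate 1 and 37.4 TPM in replicate 2. Whether counting used the strand is not given in the sources used here, and reads of the overlap may not be separable.

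Wtap, the adaptor of the complex (ENSMUSG00000060475.8, chr17:12966796-12994169, minus strand), had 43.2 TPM in replicate 1 and 37.8 TPM in replicate 2, from 4731 and 5279 expected counts. It was the most abundant writer in both libraries. Its TPM was 4.33 times that of Mettl3 in replicate 1 and 2.23 times in replicate 2, and 4.03 and 2.76 times that of Mettl14. Wtap-201, which encodes all 396 codons, took 80.9% of the TPM in replicate 1 and 81.1% in replicate 2. Wtap-205 encodes 151 codons and took 12.2% and 14.5%, or 5.25 and 5.47 TPM. Wtap was the only member whose expected counts were not whole in both libraries, within 0.005. The cause was not tested. Whole counts in both libraries were found for 86.4% of detected genes.

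Alkbh5, an eraser found mainly in the nucleus (ENSMUSG00000042650.3, chr11:60536381-60558512, plus strand), had 38.7 TPM in replicate 1 and 34.1 TPM in replicate 2. Alkbh5-201, with 395 codons, held 99.9% and 100% of that. Fto (ENSMUSG00000055932.10, chr8:91313525-91668439, plus strand), which also acts on methylated bases next to the cap of messenger RNA, had 10.2 TPM in replicate 1 and 12.4 TPM in replicate 2. Alkbh5 was thus 3.80 times Fto in replicate 1 and 2.75 times in replicate 2, a mean log2 ratio of 1.69 ± 0.33. On full-length coding transcripts the ratio was 7.95 in replicate 1 and 4.06 in replicate 2, a mean log2 ratio of 2.51 ± 0.68. Alkbh5 was the higher eraser in both libraries on either scale.

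Fto was the only member without a leading transcript, meaning one over 50% of the gene's TPM in both libraries. Fto-201, the full-length transcript with 502 codons, took 47.7% in replicate 1 and 67.5% in replicate 2, or 4.85 and 8.38 TPM. Fto-205, a transcript of 1312 bases with no coding sequence in the annotation, took 52.2% and 32.0%, or 5.31 and 3.98 TPM. In expected counts Fto-205 had 346 of the gene's 1273 in replicate 1 and 327 of 2364 in replicate 2. It starts with an exon of 178 bases at chr8:91467685-91467862 inside an intron of Fto-201 and lacks the first 4 exons of Fto-201. The codons for His-His-Asp-Glu, which include an iron-binding His and an iron-binding Asp, are absent from Fto-205 and start at codon 228 in Fto-201. The 30 bases at which the transcripts enter their first shared exon are shown because reads across this junction tell them apart. Capitals mark the exon before the junction, which is chr8:91441792-91441806 in Fto-201 and chr8:91467848-91467862 in Fto-205, and the shared part is chr8:91468317-91468331.
Fto-201: GCTATTTCATGCTGGatgacctcaatgcca
Fto-205: TTAGGTAGAAAAAAGatgacctcaatgcca
Transcripts whose bases include these His-His-Asp-Glu codons, translated or not, took 47.8% of Fto TPM in replicate 1 and 68.0% in replicate 2. Other iron-binding codons were not searched for. The annotation also places exons of 2 genes on the opposite strand, Gm45427 and 4831440D22Rik, over exons of Fto.

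The YTHDF proteins are cytoplasmic readers of closely related sequence. YTHDF2 brings bound RNA to the CCR4-NOT deadenylase for decay, and YTHDF1 and YTHDF3 have been tied to translation and decay. Translated from GENCODE M21, the proteins of Ythdf1-201, Ythdf2-203 and Ythdf3-201 have 559, 579 and 585 residues. In global alignments, identity over aligned positions was 70.2% for YTHDF1 with YTHDF2, 73.2% for YTHDF1 with YTHDF3 and 72.0% for YTHDF2 with YTHDF3. Their longest shared peptide has 26 residues and starts at codon 499, 520 and 526. The bases that encode it are shown because the protein letters are the same while the RNA letters are not, with the positions that differ in capitals.
Ythdf1-201, chr2:180910768-180910845, minus strand: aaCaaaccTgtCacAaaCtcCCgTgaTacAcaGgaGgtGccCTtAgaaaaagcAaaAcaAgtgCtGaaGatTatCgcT
Ythdf2-203, chr4:132204213-132204290, minus strand: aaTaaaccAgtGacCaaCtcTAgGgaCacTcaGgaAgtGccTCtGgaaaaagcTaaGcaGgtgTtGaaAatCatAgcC
Ythdf3-201, chr3:16205266-16205343, plus strand: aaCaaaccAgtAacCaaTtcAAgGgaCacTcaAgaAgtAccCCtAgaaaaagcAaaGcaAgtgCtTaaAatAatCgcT
Of these 78 bases, 21 differ between Ythdf1 and Ythdf2, 17 between Ythdf1 and Ythdf3, and 15 between Ythdf2 and Ythdf3. Gene counts of all 3 were whole numbers in both libraries, as were those of 86.4% of detected genes.

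Ythdf1 (ENSMUSG00000038848.10, chr2:180904377-180920949, minus strand) had 85.8 TPM in replicate 1 and 73.4 TPM in replicate 2, and percentile 82.0 among detected genes by its mean. Almost all of it, 99.8% and 99.9%, was on its full-length coding transcripts. Ythdf1-202, with 586 codons, took 85.3% in replicate 1 and 71.1% in replicate 2, and Ythdf1-201, with 559 codons, took 14.5% and 28.8%. In TPM, Ythdf1-202 had 73.2 and 52.2 while Ythdf1-201 had 12.4 and 21.1. The deposited bounds did not overlap between the libraries for either transcript. The transcripts differ by a coding exon of 81 bases at chr2:180919906-180919986, found in Ythdf1-202 alone, and by the 3′ end, which reaches further in Ythdf1-201. The exon is shown because it accounts for the whole difference in coding sequence.
Ythdf1-202: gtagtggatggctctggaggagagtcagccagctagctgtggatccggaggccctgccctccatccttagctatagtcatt

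Ythdf2 (ENSMUSG00000040025.13, chr4:132184912-132212303, minus strand) had 73.5 TPM in replicate 1 and 65.6 TPM in replicate 2. By gene TPM it was 0.856 times Ythdf1 in replicate 1 and 0.894 times in replicate 2, a mean log2 ratio of -0.19 ± 0.04. Its full-length transcript Ythdf2-203 took 7.06% and 7.04% of that, or 5.19 and 4.62 TPM. On full-length coding transcripts Ythdf2 was 0.0606 times Ythdf1 in replicate 1 and 0.0630 times in replicate 2, a mean log2 ratio of -4.02 ± 0.04. The leading transcript was Ythdf2-201, with 83.9% and 81.8% of the TPM, or 61.7 and 53.6 TPM. It has 955 bases and leaves out an exon of 1584 bases at chr4:132204132-132205715, all of it coding, so that 51 codons are left. Because that exon holds 528 whole codons, the frame continues into the last exon. The junctions out of the third exon, chr4:132210752-132210766 in capitals, are shown because they separate these transcripts. The next bases are chr4:132205701-132205715 in Ythdf2-203 and chr4:132186933-132186947 in Ythdf2-201.
Ythdf2-203: CCACAGGCAAGGCCGaataatgcatatact
Ythdf2-201: CCACAGGCAAGGCCGgaacgtcaaggtcgt
In expected counts Ythdf2-201 had 2794 of 4834 in replicate 1 and 3063 of 5605 in replicate 2, which is 57.8% and 54.6%. Ythdf2-202, a transcript with a retained intron that does hold the large exon, took 9.01% and 11.2% of the TPM. The bases of the shared peptide were held by 11.8 TPM of Ythdf2 transcripts in replicate 1 and 12.0 TPM in replicate 2, or 16.1% and 18.2% of the gene.

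Ythdf3 (ENSMUSG00000047213.10, chr3:16183212-16217037, plus strand) had 27.8 TPM in replicate 1 and 19.0 TPM in replicate 2. Ythdf3-204, a transcript of 723 bases without a coding sequence in the annotation, took 82.5% and 77.6% of it, or 22.9 and 14.7 TPM. In expected counts it had 741 of 1791 in replicate 1 and 600 of 1973 in replicate 2. The gene's 3 full-length coding transcripts together had 4.86 and 4.26 TPM, and 1050 and 1373 expected counts. Thus the summed TPM of the coding transcripts differed less between the libraries than the TPM of the gene. Taken singly, each of them differed by a larger factor than the gene, and not all in the same direction. Ythdf3-201 had 1.80 TPM in replicate 1 and 2.78 TPM in replicate 2, Ythdf3-202 0.320 and 0.660 TPM, and Ythdf3-203 2.74 and 0.820 TPM. Ythdf3-204 holds an exon of 79 bases at chr3:16187639-16187717 that Ythdf3-201 and Ythdf3-203 lack. Its junction is shown because those 2 coding transcripts do not have it, with chr3:16187101-16187115 in capitals and chr3:16187639-16187653 after it.
Ythdf3-204: CAGGCGAAGAATCATtaactattacaaatt

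Of the summed TPM of the YTHDF genes, Ythdf1 held 45.9% in replicate 1 and 46.5% in replicate 2, Ythdf2 held 39.3% and 41.5%, and Ythdf3 held 14.8% and 12.0%. Over their full-length coding transcripts alone, Ythdf1 held 89.5% and 89.2%, Ythdf2 5.42% and 5.62%, and Ythdf3 5.08% and 5.18%. The libraries thus gave nearly the same split on each scale, while the scales differed. The split among transcripts is an estimate from short reads that several transcripts share, and it was not checked by another assay.

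**Figure D3:**
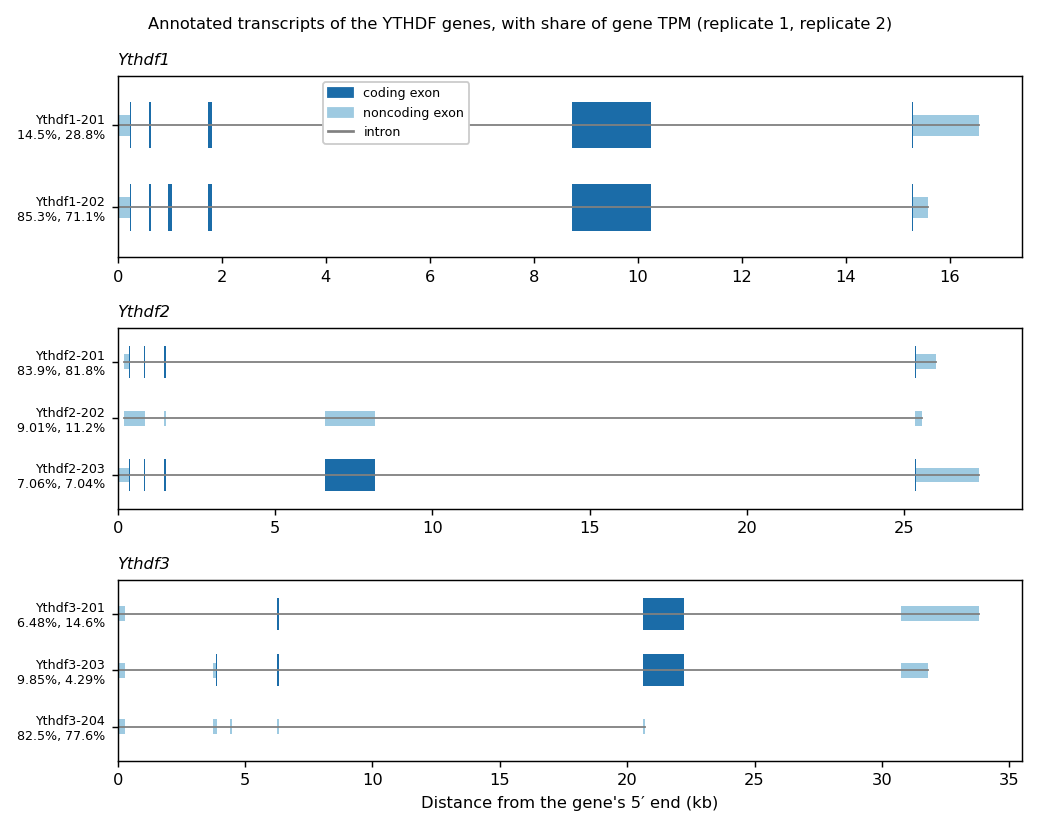
Exons of the annotated transcripts of Ythdf1, Ythdf2 and Ythdf3 that took 5% or more of the gene's TPM in a library, drawn to scale as distance in kb from the gene's 5′ end, with coding exons tall and dark, noncoding exons low and pale, and the TPM share in replicate 1 and replicate 2 beside each name. The largest coding exon is missing from Ythdf2-201 (83.9% and 81.8%) and from all but a short stretch of Ythdf3-204 (82.5% and 77.6%), and present in both transcripts of Ythdf1.

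Ythdc1, the nuclear reader of splicing and export (ENSMUSG00000035851.10, chr5:86804221-86836659, plus strand), had 25.1 TPM in replicate 1 and 24.9 TPM in replicate 2. Ythdc1-203, with 728 codons, took 80.9% and 82.4% of it. Ythdc1-205, a short transcript without a coding sequence, took 12.1% and 3.29%, from 75.8 and 25.8 expected counts. Exons of Ythdc1 overlap those of Gm43055, a noncoding gene on the same strand.

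Ythdc2, a reader with a helicase domain known from meiosis in germ cells, lies on chromosome 18 from 44827746 to 44889724, plus strand (ENSMUSG00000034653.8). It had 0.650 TPM in replicate 1 and 0.710 TPM in replicate 2, from 225 and 308 expected counts on its only listed transcript. Ythdc1 was 38.6 times Ythdc2 in replicate 1 and 35.1 times in replicate 2, a mean log2 ratio of 5.20 ± 0.10. Its partners in meiosis, Meioc and Rbm46, had 0 counts in both libraries. A count of 0 allows up to 3 counts, which is 0.0484 CPM, counts scaled to the library total, in replicate 1 and 0.0372 in replicate 2, for counting error only.

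Over all members, 9 had 1 leading transcript in both libraries, Ythdc2 with its only transcript among them. Of the 9 detected members with 2 or more transcripts, 8 had one, while 73.9% of all detected genes with 2 or more transcripts did. At over 75% of the TPM, 7 members remained, without Mettl3, Fto and Ythdf1. Ythdc2 is among the 7 through its only transcript. The share over all genes at this limit is not given here, so the 7 cannot be set against it.

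The libraries were compared by expected counts scaled with TMM factors, as replicate 1 over replicate 2. No member differed by more than 2-fold, while 7.13% of the 11624 genes with 10 or more counts did. Scaled counts were higher in replicate 1 for 7 members and in replicate 2 for Mettl3, Mettl14 and Fto. The log2 ratios lay between -0.39 for Fto (95% counting interval -0.49 to -0.30) and 0.36 for Ythdf3 (0.27 to 0.45). For Mettl3 (-0.23 to 0.01) and Ythdc2 (-0.21 to 0.30) the interval spanned both signs, so counting error alone leaves their direction unsettled. The median absolute log2 ratio of scaled counts was 0.29 over the members, 0.24 over detected genes and 0.27 over all genes with 10 or more counts. The same median by TPM was 0.21 over the members and 0.26 over detected genes. Scaling by the total alone shifts every log2 ratio by -0.12, which turns the sign of Ythdc1 (0.07 with TMM) and Ythdc2 (0.05 with TMM). By TPM, Mettl3 alone among the members was past 1.5-fold, as 17.7% of detected genes were. Its TPM in replicate 2 was 1.70 times that in replicate 1, while its scaled counts differed 1.08-fold.

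**Figure D4:**
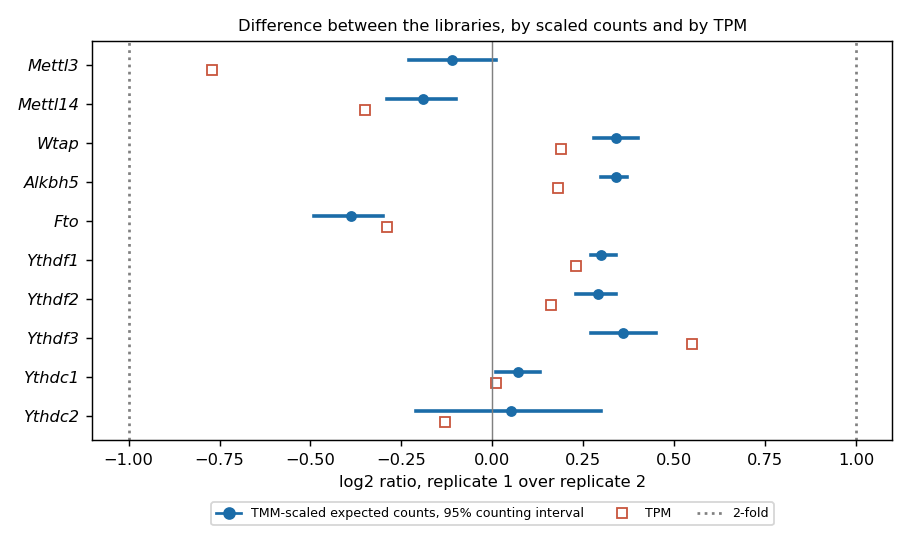
Difference between the libraries for each m6A gene as log2 of replicate 1 over replicate 2, by TMM-scaled expected counts (circles, with the exact 95% counting interval) and by TPM (squares); dotted lines mark 2-fold. All members lie inside the dotted lines, and Mettl3 has the widest gap between the scales, at -0.11 by counts and -0.77 by TPM.

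The other genes of the writer complex were all detected. Zc3h13 averaged 18.6 ± 3.17 TPM and Virma, the large scaffold that guides methylation toward stop codons and 3′ ends, 5.90 ± 1.69 TPM. Rbm15 and Rbm15b, which bind RNA and recruit the complex, averaged 9.84 ± 0.707 and 26.6 ± 4.94 TPM, and Cbll1 averaged 6.28 ± 0.806 TPM. The median of these 5 was 9.84 TPM, and none differed by more than 2-fold between the libraries.

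Of the 6 other RNA adenosine methyltransferases and partners, 5 were detected, and their median was 53.4 TPM. Trmt112, a cofactor of several methyltransferases, averaged 273 ± 13.0 TPM and its partner Mettl5, which acts on ribosomal RNA, 87.0 ± 14.1 TPM. Pcif1, which methylates adenosine next to the cap, averaged 139 ± 4.26 TPM, and Mettl16, which regulates Mat2a RNA, 19.7 ± 4.77 TPM. On full-length coding transcripts Trmt112 had 25.0 TPM in replicate 1 and 33.8 TPM in replicate 2. On that scale Mettl5 had 45.5 and 30.9 TPM, and Pcif1 stood highest of the 6 at 52.8 and 50.2 TPM. Zcchc4 averaged 5.29 ± 0.834 TPM, and Mettl4 had 0.120 TPM in replicate 1 and 0.420 TPM in replicate 2. Mettl4 was also the only one of the 6 past 2-fold between the libraries, from 13.0 and 60.0 expected counts.

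Among 9 other proposed m6A readers, 8 were detected, as were 40.0% of protein-coding genes. Fmr1, at the median of the 9, had 22.9 TPM in replicate 1 and 19.1 TPM in replicate 2. On full-length coding transcripts Fmr1 had 4.52 and 5.82 TPM. Prrc2a stood highest at 1595 ± 133 TPM, of which 37.6% in replicate 1 and 36.1% in replicate 2 was on full-length coding transcripts. Hnrnpa2b1 averaged 393 ± 83.0 TPM. Of the IGF2BP genes, whose proteins stabilise bound RNA, Igf2bp1 averaged 51.8 ± 1.80 TPM, Igf2bp3 11.8 ± 0.863 TPM and Igf2bp2 0.180 ± 0.0849 TPM. None of the 9 differed by more than 2-fold between the libraries.

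The 4 genes for supply of the methyl donor were all detected, with a median of 20.1 TPM. Mat2a, the catalytic subunit that makes S-adenosylmethionine, averaged 18.5 ± 6.87 TPM, and Mat2b, its regulatory subunit, 52.3 ± 4.57 TPM. On full-length coding transcripts Mat2b was the lower gene, at 3.95 TPM in replicate 1 and 5.18 TPM in replicate 2, and Mat2a had 13.6 and 23.4 TPM. Ahcy, which clears the by-product of methyl transfer, had 10.9 TPM in replicate 1 and 30.1 TPM in replicate 2. Of 10 effector partners of the YTH proteins, 8 were detected, with Meioc and Rbm46 the exceptions, and the median of the 10 was 17.6 TPM. Cnot1, the scaffold of CCR4-NOT, averaged 13.1 ± 2.36 TPM and Cnot7, one of its deadenylases, 60.4 ± 12.7 TPM. On full-length coding transcripts that order turned, with 4.19 TPM in replicate 1 and 4.16 TPM in replicate 2 for Cnot7, and 11.4 and 14.8 TPM for Cnot1. Upf1, the decay helicase, averaged 152 ± 1.68 TPM and the adaptor Rida 2.55 ± 0.863 TPM. Nxf1, the export receptor, averaged 78.8 ± 1.53 TPM, of which 11.0% in replicate 1 and 7.30% in replicate 2 was on full-length coding transcripts. Srsf3, a splicing partner of YTHDC1, was the only effector past 2-fold by scaled counts, with a log2 ratio of -1.38. In TPM, Srsf3 had 11.7 in replicate 1 and 32.5 in replicate 2.

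**Figure D5:**
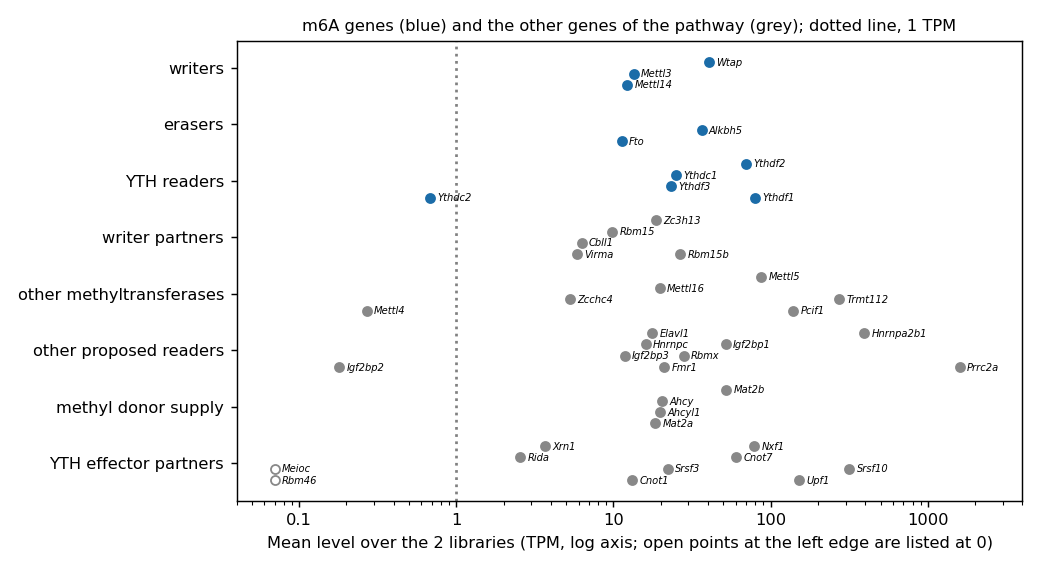
Mean TPM over the 2 libraries on a log axis for the m6A genes (blue) and the other genes of the pathway (grey), by role, with a dotted line at 1 TPM. Prrc2a at 1595 TPM and Hnrnpa2b1 at 393 TPM are the highest genes shown. Srsf10, Trmt112, Upf1, Pcif1 and Mettl5 also stand above every m6A gene, and Ythdc2, Mettl4, Igf2bp2, Meioc and Rbm46 lie below 1 TPM. This holds for gene TPM. On full-length coding transcripts, which are not drawn here, Srsf10, Trmt112, Pcif1 and Mettl5 lie below Ythdf1 in both libraries, and Upf1 above it.

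As a scale, the m6A genes were set beside 2 other families. Of 9 DNA methylation genes 6 were detected, with a median of 17.0 TPM, Uhrf1 highest at 195 TPM and Dnmt3l at 0. Of 11 SR splicing factors 10 were detected, with a median of 119 TPM, Srsf2 highest at 1801 TPM and Srsf12 at 0. The m6A median of 24.2 TPM lay between them. These are levels of RNA, and neither protein nor methylation was measured.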

How the data were processed

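RNA of 2 G1E libraries was measured. For each library the authors made gene and transcript tables on mm10 with annotation M4, per the deposited descriptions. Aligner, quantifier and strand setting are not stated there. Expected counts in the deposited tables divide shared reads between features by a model. TPM values were scaled by the authors for effective length and library total, and the deposited transcript shares are the percent of a gene's TPM. FPKM values, scaled by the authors by length and total fragments, were deposited and entered no result. The deposited bounds of TPM were treated as a score, since the file headers do not state their level.

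From these files, members were matched by Ensembl identifier through gene names and GENCODE M21 (the same assembly). Of the 17 transcripts that lead their gene or reach 10% of its TPM in a library, 14 have the same length in M4 and M21. Numbered and spike-in entries were left out. TMM factors were 0.960 and 1.04 (edgeR 4.0.16, R 4.3.3; genes with 10 or more counts in a library), and counting intervals are exact 95% Clopper-Pearson intervals of the conditional share. Python 3.11.15 did the rest. The ratio step was tested on simulated data. Named genes are the 10 members and fixed lists of the pathway. The members and lists were chosen with earlier results of these data known. Intervals and floors cover counting error only.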

Additional observations from a re-analysis of the deposited data

How the results depend on the processing

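No paired analysis was possible because the series has 1 group. Restricting TPM to full-length coding transcripts, a choice made after seeing the data, lowered the median of the members to 10.8 TPM, left overlap for 3 rather than 5 pairs of neighbours, and gave log2 ratios of -0.35 for Mettl3 to Mettl14 (a reversal of 0.10), 2.51 for Alkbh5 to Fto, -4.02 for Ythdf2 to Ythdf1 and 4.97 for Ythdc1 to Ythdc2. In CPM, without length scaling, those ratios were -0.60 (again reversed), 2.88, -1.15 and 4.13. A pseudocount of 1 TPM lowered the Ythdc1 ratio to 3.95, and 0.1 TPM to 5.01. With 1 library left out, the Mettl3 ratio ran from -0.11 to 0.31. A 1.5-fold limit on TPM, also added later, gave 1 member past it and not 0. The causes were not tested. Of 53 alternatives for these summaries, 39 stayed within the spread between the libraries or within 1.5 times the count. With 2 libraries, leaving 1 out keeps a log2 ratio within that spread by construction, so those alternatives are no check of it. The lowest member, Ythdc2, had 225 and 308 expected counts, so the alternatives with counts above 0 or of 50 or more could drop no member. Precision is limited by 2 libraries of 1 cell sample and, for Mettl3-205 and Ythdc1-205, by under 100 expected counts.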

Other observations

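The values of 4 other genes follow, chosen after they were seen and given with no explanation. Ahcy-202, a transcript of 341 bases, had 0 expected counts in replicate 1 and 165 in replicate 2, which was 40.1% of the Ahcy TPM in replicate 2. Xrn1-206, of 357 bases, took 82.6% of the Xrn1 TPM in replicate 1 and 55.0% in replicate 2 from 41.3 and 25.5 expected counts. Srsf10, a splicing partner of YTHDC1, averaged 317 TPM with 0.692% in replicate 1 and 1.16% in replicate 2 on full-length coding transcripts. Srsf5, with Srsf3 the only SR factor past 2-fold between the libraries by scaled counts, had 109 TPM in replicate 1 and 299 TPM in replicate 2.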
